A study of Mus musculus with 8 samples.

Results

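The microglia described here came from the normal cerebral cortex of C57BL/6 mice at postnatal day 60, and they make up 3 of the 8 RNA-seq libraries of a study of medulloblastoma, a tumor of the cerebellum. The members are the 3 libraries that the labels name normal microglia, and only these are described, with no comparison to the tumor libraries. Dissected cortex was digested for 45 min in papain with L-cysteine and DNase I, myelin was depleted, cells were captured with magnetic beads against CD11b, and total RNA was extracted with TRIzol. CD11b is a surface integrin of microglia and of other myeloid cells, so bead capture does not separate microglia from macrophages at the brain's borders. The labels give neither the sex of the mice nor whether 1 library was made from 1 mouse or from several. All 3 libraries share age, strain, tissue and capture, so they form 1 group, no test between groups applies, and each spread below is the spread between these 3 libraries, which may be technical.

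Microglia are the resident macrophages of the brain. They arise from embryonic yolk sac precursors, depend on signalling through the Csf1r receptor, and keep their identity through transcription factors such as PU.1 (Spi1), Irf8 and Sall1 together with TGF-beta from their surroundings. They survey the tissue with motile processes, sense purines released by injured cells, clear debris through a large lysosomal system, and supply much of the C1q complement protein of the brain.

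The deposited values are transcripts per 1000000 (TPM), a level per transcript length scaled to 1 common total, so levels can be set side by side between genes. Between libraries a level also depends on what the rest of the library holds, and for genes with near-identical copies it is uncertain, as described below. TPM values keep no record of sequencing depth, so the counting error behind a single value is unknown. The table lists 38026 annotated features, of which 21662 are protein-coding genes. All means below are given with the SD over the 3 libraries (n = 3), and ranks are ranks among protein-coding genes with 1 as the highest.

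The microglial label was first checked against 4 markers. P2ry12, the purine receptor that steers microglial processes towards ATP and ADP, stood at 2586, 2362 and 1972 TPM in libraries 1, 2 and 3 (mean 2307 ± 311), with ranks 29, 32 and 42. Csf1r, the receptor for CSF1 and IL-34, stood at 3417, 3202 and 3119 TPM (3246 ± 154; ranks 16, 22 and 21). Cx3cr1, the fractalkine receptor, stood at 1943, 1794 and 1707 TPM (1815 ± 119; ranks 42, 46 and 50). In all 3 libraries these receptors were among the 50 most abundant coding transcripts. Tmem119, a membrane protein that separates microglia from most other macrophages, stood at 1289, 1171 and 1164 TPM (1208 ± 70.7; ranks 64, 73 and 73). On mouse build mm10, P2ry12 lies at chr3:59216272-59262871, Cx3cr1 at chr9:119901616-120068283 and Tmem119 at chr5:113793729-113800516, as the deposited table gives them. Each of the 4 markers was highest in library 1, and the widest gap between libraries was 1.31-fold, for P2ry12. Itgam, which encodes the CD11b used for capture, had a mean of 636 ± 16.1 TPM (rank 149). Aif1, whose product is the microglial stain Iba1, had a mean of 429 ± 59.2 TPM, and the pan-leukocyte phosphatase Ptprc (CD45) a mean of 97.9 ± 4.53 TPM at rank 1262. The 4 markers named for the labelled cell type were thus present at high rank in each library.

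At 1 TPM or more in all 3 libraries, 12083 coding genes were detected, which is 55.8% of those listed. A level of 10 TPM in all 3 was reached by 7572 genes (35%), 100 TPM by 1036 (4.78%) and 1000 TPM by 81 (0.374%), while 3404 genes were listed at 0 throughout. The median detected gene had a mean of 19.8 TPM. Library 1 had fewer genes at 1 TPM or more, 12188, than library 2 with 13536 and library 3 with 13231. RNA was concentrated in few genes: the 100 coding genes of highest mean held 33.9 ± 1.92% of all coding TPM (36.1, 33.2 and 32.4%). Reaching 50% of coding TPM took 291 genes in library 1, 419 in library 2 and 417 in library 3, so library 1 was the most concentrated. Of the 100 top genes of each library, 92 were shared by all 3 out of 111 in any.

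**Figure D1:**
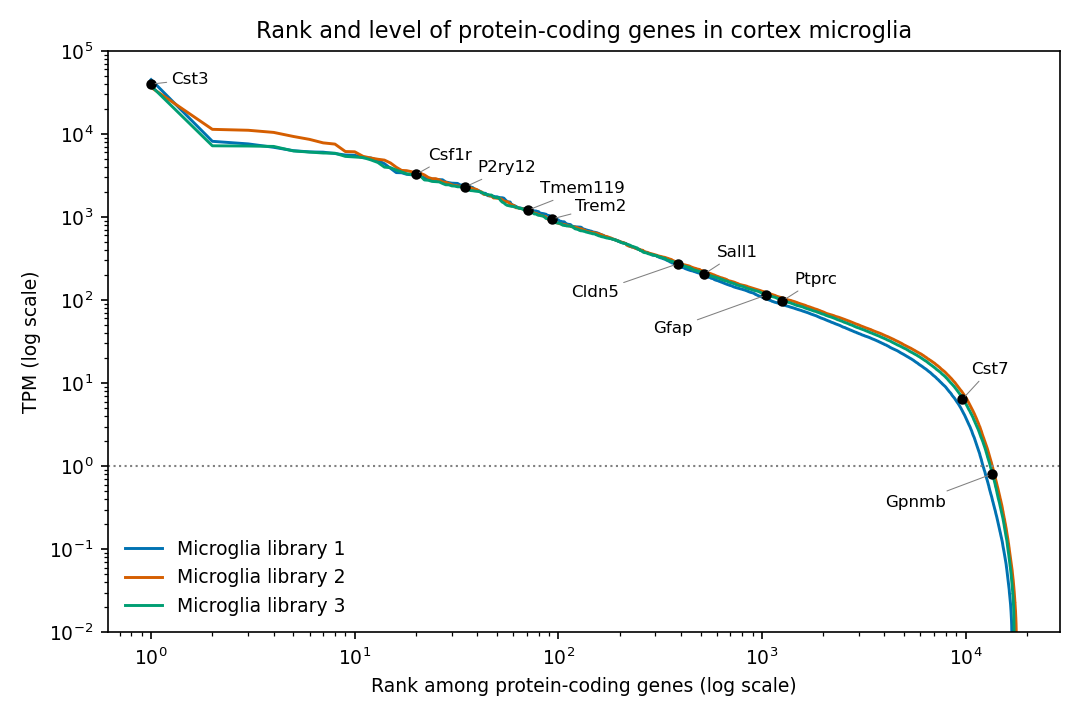
Level of each protein-coding gene against its rank within a library, both on log scales, with 1 line for each of the 3 libraries and black points for the mean level of named genes. The dotted line marks 1 TPM, and the line of library 1 runs below the others from about the middle ranks on, where Ptprc (97.9 TPM) and lower genes lie.

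Cst3 alone led every library. It encodes cystatin C, a secreted inhibitor of cysteine proteases (chr2:148871722-148875692), and stood at 44902, 36198 and 37790 TPM, which is 5.94, 4.24 and 4.78% of coding TPM. No other coding gene came near it: the next, mt-Co1, had a mean of 8191 ± 2775 TPM. Other genes high in the order were Apoe (7069 ± 1062 TPM), the main lipid carrier of the brain, and Tmsb4x (6333 ± 482 TPM), which binds monomeric actin. Lysosomal genes followed closely, with cathepsin D (Ctsd) at 5522 ± 439 TPM and cathepsin S (Ctss) at 4025 ± 652 TPM. The iron-storing ferritin chains Ftl1 and Fth1 had means of 5248 ± 377 and 3309 ± 50.5 TPM. Of the 30 top genes, 24 were in the top 30 of every library.

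By the gene lists used here, which can overlap, the 100 top genes held 20 ribosomal protein genes, 15 resting microglia genes, 13 mitochondrially encoded genes, 8 lysosomal genes, 7 immediate early genes, 6 damage-associated genes and 5 heat shock genes. The 15 resting microglia genes held 8.91% of all coding TPM and the 13 mitochondrially encoded genes 6.94%. One gene known chiefly from astrocytes stood among the 30 top genes. Glul, glutamine synthetase, was listed at 2054, 2888 and 2528 TPM.

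**Figure D2:**
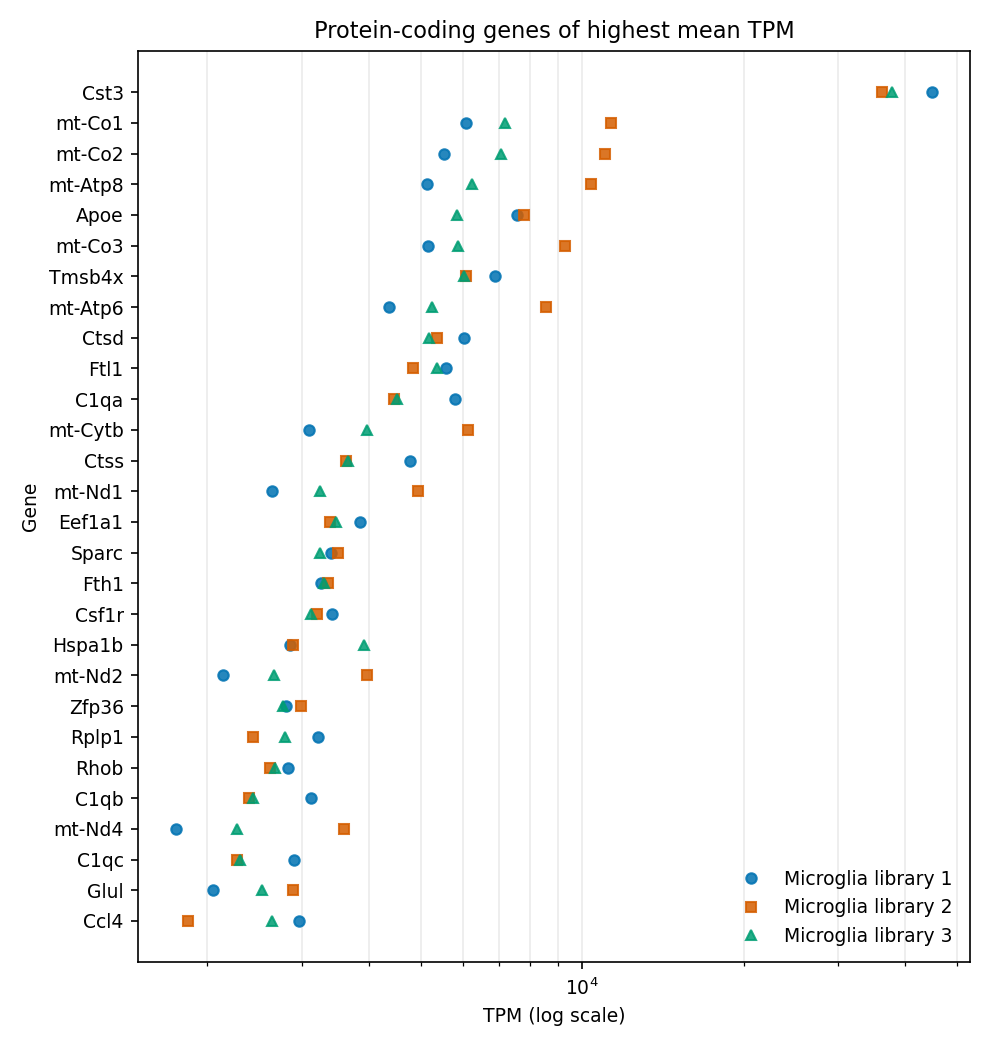
TPM of 28 of the 30 protein-coding genes of highest mean on a log axis, in order of their mean, with 1 marker for each library. Cst3 stands apart at 36198 to 44902 TPM, and the mitochondrially encoded genes have library 2 to the right of the other libraries, as for mt-Co1 with 11330 TPM against 6063 and 7179 TPM.

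Genes of the resting microglial state were high as a group. Like all lists here, theirs was chosen with earlier results of these data known, so these levels are a description and not a test. All 36 listed members reached 1 TPM in every library, and 34 had a mean of at least 100 TPM, a level reached by 5.66% of all coding genes. Their median level was 552 TPM and their median rank 182. Besides the genes above, Sparc, a secreted matrix protein, had a mean of 3382 ± 133 TPM, and the endopeptidase Lgmn 2482 ± 285 TPM. The signalling adaptor Tyrobp (DAP12), at 2303, 1856 and 1862 TPM, exceeded its partner receptor Trem2, which stood at 1083, 920 and 836 TPM. Upk1b was the lowest member at 3.5 TPM, a value named after it was seen. As deposited, 23 of the 35 members with a mean of at least 10 TPM were highest in library 1, where the share for all such genes was 10.7%. After the median-ratio rescaling described below, 34 of the 35 were, against 60.8%. This was not particular to the list. As deposited, 64 of 79 ribosomal protein genes at that mean were highest in library 1, and genes of 300 TPM or more were slightly higher there at the median. None of the 35 varied more than 2-fold between libraries.

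All 27 listed transcription factors of microglia were detected, with a median of 103 TPM. Egr1, an activity-induced factor, led with 853 ± 119 TPM. Cebpa, a factor of myeloid differentiation, had a mean of 343 ± 31.1 TPM. Irf8 stood at 314, 308 and 356 TPM, Spi1 at 320, 267 and 298 TPM, and Irf5 at 281, 276 and 270 TPM. These 3 factors thus lay in a narrow band from 267 to 356 TPM in all libraries. Sall1, which is largely restricted to microglia among macrophages, was at 189, 213 and 217 TPM and is named here after its value was seen.

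Among purine receptors and purine-handling genes, 13 of 22 reached 1 TPM in all libraries, and a few members held most of the RNA. After P2ry12, the lysophosphatidylserine receptor Gpr34 had a mean of 774 ± 83.5 TPM, the ADP receptor P2ry13 611 ± 57.5 TPM, and the ectonucleotidase Entpd1 (CD39), which degrades ATP, 350 ± 13.3 TPM. The UDP receptor P2ry6, linked to phagocytosis, was at 147 ± 13.9 TPM and the ATP-gated channel P2rx7 at 99.7 ± 11.5 TPM. The list's median was only 3.8 TPM, since most remaining members were near the detection level.

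Receptors for immunoglobulin were likewise led by few genes, with 9 of 14 detected. Fcrls, an Fc receptor-like gene of mouse microglia, had 1037 ± 155 TPM, the common signalling chain Fcer1g 957 ± 133 TPM, and the low-affinity IgG receptor Fcgr3 652 ± 57.5 TPM. Fcgr1 had 200 ± 28.4 TPM, the neonatal receptor Fcgrt 177 ± 28.2 TPM, and the inhibitory Fcgr2b 172 ± 32.6 TPM. Fcer1a, the IgE-binding chain of mast cells and basophils, was listed at 0 in all 3 libraries. Of 9 sialic acid-binding lectins, 8 were detected, with Siglech at 908 ± 47.5 TPM and Cd33 at 239 ± 21.3 TPM well above the next, Siglece, at 34.3 ± 6.33 TPM.

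Among 19 genes of Toll-like receptor sensing, 18 were detected. The most abundant were accessory proteins: Unc93b1, which moves the nucleic acid-sensing receptors to endosomes, at 824 ± 44.6 TPM, Ly86, a partner of Cd180, at 799 ± 134 TPM, and the lipopolysaccharide coreceptor Cd14 at 345 ± 83.3 TPM. The receptors themselves were lower, with the RNA sensor Tlr7 at 148, 157 and 149 TPM and the lipoprotein sensor Tlr2 at 158, 117 and 136 TPM. Cd180 had 107 ± 7.89 TPM.

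The complement list was dominated by the 3 chains of C1q, the initiator of the classical pathway. C1qa stood at 5797, 4458 and 4522 TPM, C1qb at 3126, 2392 and 2436 TPM, and C1qc at 2908, 2268 and 2303 TPM. Each chain was highest in library 1 and close in the other libraries. Itgb2, which pairs with CD11b as complement receptor 3, had 187 ± 18.6 TPM. C3, the central component of the cascade and named after its value was seen, stood at only 1.6 TPM.

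All 40 lysosomal genes were detected, with a median of 207 TPM, and 29 of the 39 with a mean of at least 10 TPM were highest in library 1 as deposited, against 10.7% of all such genes. After the median-ratio rescaling described below, 37 of the 39 and 60.8% of all such genes were highest there. Laptm5, a lysosomal membrane protein of leukocytes, had 2476 ± 97 TPM and the saposin precursor Psap 2104 ± 134 TPM. Only 3 of 7 cystatins reached 1 TPM in all libraries. After Cst3 came the intracellular cathepsin inhibitor Cstb at 122 ± 8.34 TPM and then Cst7 at 6.43 ± 1.47 TPM, while Cst8 and Cst9 were listed at 0.

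Genes of antigen presentation by MHC class I were detected in 18 of 18 cases. The light chain B2m had 2197 ± 199 TPM, the heavy chains H2-D1 and H2-K1 715 ± 41.7 and 314 ± 11.8 TPM, and the peptide-loading factor Tapbp 160 ± 4.02 TPM. Class II genes were lower, with 10 of 11 detected and a median of 32.4 TPM. The invariant chain Cd74 stood at 462, 359 and 343 TPM, H2-Aa at 242, 179 and 141 TPM, and H2-Ab1 at 164, 127 and 107 TPM. Ciita, the master regulator of class II, was at 0.764 TPM and is named after its value was seen. Cd74, H2-Aa and H2-Ab1 were highest in library 1 and lowest in library 3. Of the 9 class II genes with a mean of at least 10 TPM, 4 were highest in library 1 as deposited and 5 in library 2. Lowest in library 3 were 6. The shares for all coding genes at that mean were 10.7, 71.5 and 18.3%. After rescaling 9 were highest in library 1, against 60.8%, and 4 lowest in library 3, against 29%. Library 3 was the one in which the border macrophage markers described below were lowest, and their part in this was not tested.

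Genes that respond within minutes to stimulation were abundant. All 33 immediate early genes were detected with a median of 363 TPM, against 19.8 TPM for all detected coding genes. Zfp36, which destabilises cytokine mRNAs, stood at 2801, 2985 and 2763 TPM, and the small GTPase Rhob at 2828, 2614 and 2676 TPM. The AP-1 genes Junb and Jun had 2249 ± 152 and 1715 ± 151 TPM, Atf3 1438 ± 266 TPM, and Nfkbia, the inhibitor of NF-kappaB, 1405 ± 196 TPM. Heat shock genes were also high, with 15 of 15 detected and a median of 362 TPM. The inducible chaperones Hspa1b and Hspa1a stood at 2853, 2888 and 3914 TPM and at 1776, 1679 and 2352 TPM. Both genes are near-identical copies of each other, so the split between them is uncertain. The constitutive Hspa8 had 1830 ± 167 TPM, the endoplasmic reticulum chaperone Hspa5 1327 ± 26.3 TPM, and Hsp90aa1 stood at 712, 754 and 1035 TPM. As deposited, 12 of the 15 were highest in library 3, against 17.8% of all coding genes with a mean of at least 10 TPM. After rescaling, that count was 8, against 17.8% of all such genes. All cells had passed through the same 45 min enzyme digestion, no undigested sample is part of the group, and the part of the isolation in these levels was not tested.

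Chemokines showed the same mix of very high and near-absent members, with 20 of 23 detected. Ccl4 and Ccl3, chemoattractants released by activated myeloid cells, stood at 2966, 1844 and 2641 TPM and at 1920, 1288 and 1833 TPM. Both were lowest in library 2. Ccl2 (281 ± 54.9 TPM), Ccl12 (272 ± 46.4 TPM) and Ccl7 (211 ± 39.4 TPM), which attract monocytes, and Cxcl2 (171 ± 31.4 TPM), which attracts neutrophils, followed. Of the 13 chemokines with a mean of at least 10 TPM, 11 were highest in library 1 as deposited, against 10.7% of all such genes, and 12 after rescaling, against 60.8%. Among 32 cytokines and growth factors, 26 were detected, with Il1a at 487, 273 and 327 TPM, Tnf at 364, 290 and 357 TPM, and Tgfb1 at 257, 250 and 280 TPM. Pdgfb had 184 ± 22.2 TPM, Osm 143 ± 19.6 TPM and Gdf15 128 ± 29.7 TPM. Il1b and Il6, named after their values were seen, had 111 ± 37.6 and 2.51 TPM. Among 23 chemokine receptors 13 were detected, with Ccrl2 at 745 ± 129 TPM, Ccr6 at 137 ± 26 TPM and the chemerin receptor Cmklr1 at 105 ± 3.32 TPM below Cx3cr1, while Cxcr1 was listed at 0.

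The list of genes raised in damage-associated microglia in disease models was split. Its members that are also part of the resting state or of the lysosome were high, such as Apoe, Ctsd and Tyrobp, whereas members often used to mark the induced state were low. Cst7 stood at 7.52, 4.76 and 7 TPM. The mean was 20.3 TPM for Spp1 (osteopontin), 13.5 TPM for the beta-glucan receptor Clec7a, 12.1 TPM for Igf1, 6.15 TPM for the lipase Lpl and 0.806 TPM for Gpnmb. These low members were named after their values were seen. All but Gpnmb and 1 other member of the 29 reached 1 TPM in every library.

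Genes of cell division were low, with a median of 3.53 TPM over 24 genes of which 20 were detected. Pcna, which also serves DNA repair, had 138 ± 13.1 TPM, and the replication helicase subunits Mcm3 and Mcm7 18.5 ± 1.19 and 18.1 ± 1.63 TPM. The mitotic kinase Cdk1 had 11.2 ± 2.24 TPM, and the proliferation marker Mki67, named after its value was seen, 1.31 TPM. All 25 interferon response genes were detected, but their median was 9.05 TPM. Ifitm3 (115, 204 and 164 TPM) and Bst2 (104 ± 9.68 TPM), which restrict viruses at membranes, and the receptor chain Ifnar2 (138 ± 4.4 TPM) led, while inducible genes such as Ifit1 (3.1 TPM) and Rsad2 (3.28 TPM), named after their values were seen, were low.

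Housekeeping and structural lists were detected almost in full. All 29 actin cytoskeleton genes were detected with a median of 255 TPM, led after Tmsb4x by the actins Actb (2392 ± 186 TPM) and Actg1 (1210 ± 78.2 TPM). The 12 translation factors had a median of 461 TPM, with Eef1a1, which delivers aminoacyl-tRNA to the ribosome, at 3850, 3389 and 3481 TPM and Tpt1 at 2007 ± 88.1 TPM. Tpt1-ps3, a near-identical copy of Tpt1 named after its value was seen, was listed at 817 TPM, so the level of Tpt1 is uncertain. Of 13 genes of iron handling 12 were detected, and below the ferritins the heme-degrading enzyme Hmox1 stood at 378, 357 and 486 TPM. All 16 leukocyte integrin genes were detected, with the activator Fermt3 (kindlin-3) at 211 ± 11.5 TPM. The 22 ion channel genes were all detected but at a median of only 39.4 TPM. Clic1, an intracellular chloride channel, had 251 ± 19.3 TPM, and the proton channel Hvcn1 77.2 ± 12.7 TPM, while Clic4 stood at 49.5, 106 and 86.3 TPM and was lowest in library 1.

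Signalling lists around the markers were detected to different degrees. In the CSF1 receptor list 7 of 9 genes were detected. Csf1 itself had 124 ± 19.6 TPM, the G-CSF receptor Csf3r 410 ± 31.9 TPM and the GM-CSF receptor chain Csf2ra 82.8 ± 0.424 TPM. The second Csf1r ligand Il34, which neurons are known to make, stood at 8.76, 27.7 and 25.3 TPM and was lowest in library 1. In the list downstream of Trem2 all 19 genes were detected, with the lipid phosphatase Inpp5d at 422 ± 54.5 TPM and the exchange factor Vav1 at 210 ± 3.19 TPM. In the TGF-beta list 19 of 20 were detected, with the integrin chain Itgb5 at 737 ± 79.1 TPM, Tgfbr1 at 457 ± 32.9 TPM, Tgfbr2 at 153 ± 7.12 TPM and Nrros, which presents latent TGF-beta on microglia, at 148 ± 9.06 TPM. Of 19 mouse orthologues of genes tied to Alzheimer's disease risk, 18 were detected with a median of 168 TPM, Apoe, Grn, Trem2, Bin1, Inpp5d and Picalm being the highest. Grn, the progranulin precursor, had 974 ± 46.3 TPM, Bin1, an endocytic membrane-bending protein, 481 ± 33.2 TPM, and Picalm, a clathrin adaptor, 359 ± 10.8 TPM.

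Sugar transporters and glycolytic enzymes were all detected, at a median of 87.3 TPM. The fructose transporter Slc2a5, a microglial gene, stood at 386, 377 and 407 TPM and hardly varied. The glucose transporter Slc2a1, which is abundant in brain endothelium, stood at 186, 573 and 479 TPM and was lowest in library 1, with library 2 at 3.08 times its level. The 13 mitochondrially encoded genes, which specify core subunits of the respiratory chain and ATP synthase, held 5.41, 9.15 and 6.24% of coding TPM. As deposited, all 13 were lowest in library 1 and highest in library 2, with library 3 between, an order held by 59.7% of coding genes with a mean of at least 10 TPM. With rescaled values, 13 of 13 were still highest in library 2, against 21.4% of all such genes, but only 4 kept the order. Of 93 nuclear genes for the same complexes, 89 were detected, and their shares of coding TPM were close, at 1.07, 1.12 and 1.07%. Atp5b led them with 368 ± 35.2 TPM, followed by Cox4i1 with 355 ± 22.3 TPM and Cox8a with 348 ± 54.7 TPM. As deposited, 75 of the 83 nuclear genes at a mean of 10 TPM or more were highest in library 2. The share for all such genes was 71.5%. After rescaling 9 were, against 21.4%. On the deposited scale the nuclear genes thus mostly shared the direction of the mitochondrial ones but did not follow them in size.

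Ribosomal protein genes need their near-identical copies to be read correctly. Mammalian genomes hold many processed pseudogenes and a few expressed retrocopies of these genes, and reads from one can be assigned to another. In the annotation, 86 listed genes encode proteins of the cytosolic ribosome or close relatives, and their median level was 578 TPM, but 19 of them were below 100 TPM. Rps27 was listed at 0 in all 3 libraries, although its product is a protein of the cytosolic ribosome. Its copy Rps27rt on chromosome 9 was listed at 2541, 2299 and 2258 TPM. Over the 252 bases of coding sequence, gene and copy had 0 mismatches, so short reads from this stretch cannot tell them apart. Rpl31 stood at 10.5, 10.7 and 8.78 TPM, against 1408, 1364 and 1325 TPM for Rpl31-ps8, with 0 mismatches over 375 bases. Rpl3 had a mean of 2.17 TPM, against 690 ± 36.2 TPM for Rpl3-ps1, with 2 mismatches over 1209 bases. The first 150 coding bases of 2 such pairs are shown from the GENCODE M21 transcripts on GRCm38, because they carry the ambiguity; these genes were chosen after their values were seen. Letters in capitals mark a base that differs within a pair, and the gene is given first.
Rps27: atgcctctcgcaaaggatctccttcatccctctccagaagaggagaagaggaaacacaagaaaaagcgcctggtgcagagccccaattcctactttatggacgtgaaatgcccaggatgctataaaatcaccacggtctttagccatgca
Rps27rt: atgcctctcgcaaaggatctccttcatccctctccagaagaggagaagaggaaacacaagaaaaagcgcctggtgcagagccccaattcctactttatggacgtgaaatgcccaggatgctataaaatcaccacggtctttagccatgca
Rpl3: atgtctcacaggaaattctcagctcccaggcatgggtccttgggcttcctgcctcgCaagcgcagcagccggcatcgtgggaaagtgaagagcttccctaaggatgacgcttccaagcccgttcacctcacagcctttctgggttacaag
Rpl3-ps1: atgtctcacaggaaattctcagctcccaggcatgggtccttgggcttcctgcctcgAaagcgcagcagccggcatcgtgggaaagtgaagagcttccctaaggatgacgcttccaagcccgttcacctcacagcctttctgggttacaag
The shown stretch of Rps27 spans chr3:90213010-90213615 on the minus strand with its introns, and that of Rps27rt is the unbroken chr9:114982558-114982707 on the minus strand. For Rpl3 the stretch spans chr15:80082436-80083326 on the minus strand, and for Rpl3-ps1 it is chrX:13202572-13202721 on the plus strand.

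Over all 86 genes, 36 had at least 1 matched copy with a mean of at least 10 TPM, with 41 such copies in all. A match was 95% identity over 80% of the copy's length. Copies were sought only among features listed as pseudogenes, plus Rps27rt, so other copies listed as protein-coding were not counted. Rpl10-ps3, named after its value was seen, is listed as protein-coding among the 100 top genes and was not searched. The counts and shares of copies given here are therefore minimums. The copies held 33.4% of the summed TPM of genes and copies, with 33.4, 33.6 and 33.2% in the 3 libraries. The sums were alike, but the split of a single gene could differ between libraries: Rpsa, named after its values were seen, stood at 267, 327 and 304 TPM and its copy Rpsa-ps10 at 308, 65.9 and 129 TPM. In 23 genes the copies held more than the gene itself. With copies added, the median rose from 578 to 767 TPM, and 6 genes rather than 19 were below 100 TPM. Of these 6, Rpl3l, Rpl10l, Rpl39l, Rpl7l1 and Rps27l are paralogues of ribosomal protein genes, and Rpl27 had 84.1 TPM with its copy. The same held for some standard reference genes, all named after their values were seen. Ppia (cyclophilin A) had 22.4 TPM against 1217 ± 36.3 TPM for Gm10123, and Gapdh had 67.4 ± 7.44 TPM against 557 TPM in its copies Gm13394 and Gm12033. Atp5g2, a subunit of ATP synthase, was listed at 0, against 298 TPM for Gm10231. Levels of these genes are therefore uncertain, and the way the authors assigned reads that match several places is not given in the sources used here.

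**Figure D3:**
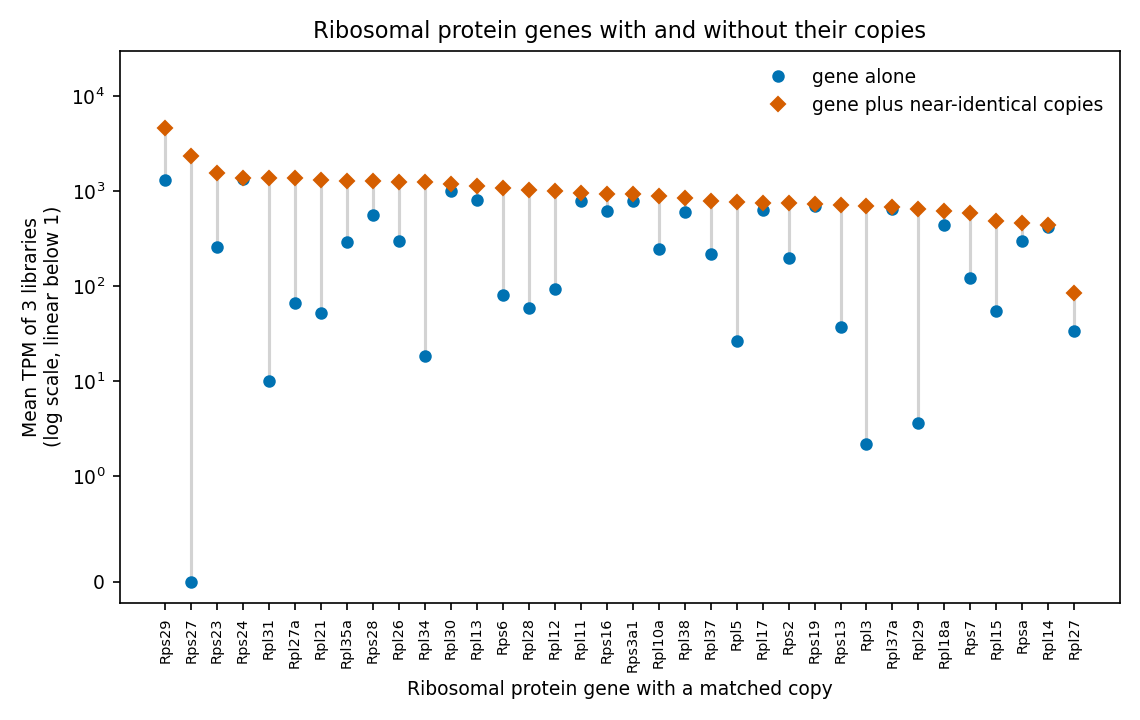
Mean TPM over 3 libraries of the 36 ribosomal protein genes with a matched copy, alone (circles) and with near-identical copies added (diamonds), on a scale that is logarithmic above 1 and linear below. Grey lines join both values: Rps27 goes from 0 to 2366 TPM and Rpl27 has the lowest total, 84.1 TPM with its copy, while every other total lies above 100 TPM.

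Noncoding features took a share of the libraries that differed between them. Coding genes held 75.9, 86.2 and 79.9% of all TPM. The microRNA gene Mir6236 (chr9:110281287-110281409) was listed at 66501, 13644 and 39339 TPM, the pseudogene Gm15662 (chr10:105238134-105238292) at 53149, 10681 and 32073 TPM, and the microRNA gene Mir6240 (chr5:114851948-114852064) at 33064, 7428 and 20136 TPM. All 3 were highest in library 1 and lowest in library 2, and together they held 15.3, 3.20 and 9.24% of all TPM. Their annotated genes are 123, 159 and 117 bases long, the molecule is given as total RNA and no selection of small RNA is stated, so the values are not levels of mature microRNA. The mature sequences given by RefSeq for both microRNAs (GRCm38.p6) are shown to identify the features, with the seed at bases 2 to 8 in capitals.
mmu-miR-6236: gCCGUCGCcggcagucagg
mmu-miR-6240: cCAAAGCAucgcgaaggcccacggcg
Their seeds differ. Other abundant noncoding features were the small nuclear RNA gene Gm25887 (3930 ± 1294 TPM), Gm14303 (3347 ± 148 TPM), which is the near-identical copy of Rps29, and Gm10222 (1991 ± 539 TPM), a nuclear copy matched to mt-Nd4l. Gm23935 and Gm24245 were listed at the same values in every library, with a mean of 1951 TPM. The processed pseudogenes Rpl31-ps8 and Gm7536 completed the 10 highest, at 1366 ± 41.8 and 1297 ± 103 TPM.

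The 3 libraries agreed closely in the order of genes, and library 1 stood apart from the others. Across the 12083 detected coding genes, Pearson's r of log2(TPM + 1) was 0.961 for libraries 1 and 2, 0.973 for 1 and 3, and 0.991 for 2 and 3. Spearman's rho was 0.956, 0.969 and 0.990. These correlations run across genes, which are not independent replicates. A difference of more than 2-fold was found for 10.9% of genes between libraries 1 and 2, for 7.36% between 1 and 3, and for 0.646% between 2 and 3. No pair of libraries held identical values, so none was a repeat deposit of another.

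Among 8428 coding genes with a mean of at least 10 TPM, the median coefficient of variation was 12.5% and the median ratio of highest to lowest library 1.27. In 3184 genes, or 37.8%, highest and lowest differed by less than 1.2-fold. More than 2-fold on the log2(TPM + 1) scale separated highest and lowest in 728 genes, or 8.64%, and more than 4-fold in 144. Library 1 was the lowest in 714 of the 728, and library 2 the highest in 639. Without library 1, 42 of the 8428 genes (0.498%) differed more than 2-fold between libraries 2 and 3. As a base rate for these directions, library 1 was lowest for 74.3% and library 2 highest for 71.5% of all 8428 genes.

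As deposited, the spread fell with level up to 1000 TPM. The median coefficient of variation was 39.4% for genes with means of 1 to 3 TPM, 14.7% from 10 to 30 TPM and 7.43% from 300 to 1000 TPM, and it was 8.12% from 1000 TPM on. After median-ratio rescaling it fell and then rose with level, with 30.8% from 1 to 3 TPM, 11.0% from 10 to 30 TPM, 19.6% from 300 to 1000 TPM and 22.1% from 1000 TPM on. The shift between libraries changed with level as well. The median log2 difference of library 2 over library 1 was 0.60 at 1 to 3 TPM, 0.35 at 10 to 30 TPM and 0.14 at 100 to 300 TPM, and it was -0.06 at 300 to 1000 TPM and -0.11 from 1000 TPM on. High genes were thus slightly higher in library 1, and low genes were lower in it. Because of this, directions depend on the scale. Over genes with a mean of at least 10 TPM, the median log2 difference of library 2 over library 1 was 0.28 as deposited and -0.15 after median-ratio rescaling, in which each library is divided by the median, over coding genes, of its ratio to the geometric mean of the 3 libraries. With rescaled values, 504 genes (5.98%) varied more than 2-fold and 15.4% kept the order library 1, library 3, library 2.

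The steadiest genes with a mean of at least 100 TPM were Pcbp1, an RNA-binding protein, at 220, 220 and 219 TPM, and Snn (stannin) at 158, 159 and 158 TPM. Next came the phosphoinositide 3-kinase subunit Pik3cd (102 ± 0.438 TPM), the elongation factor Eef2 (666 ± 3 TPM), the cyclin Ccni (248 ± 1.12 TPM), the MAP kinase kinase Map2k1 (130.1 ± 0.602 TPM), Ubl3, the microglial Golgi gene Golm1 (317 ± 1.86 TPM), Fez2 and the stress-response factor Atf4 (276 ± 2.19 TPM). This steadiness holds for the deposited scale, since after rescaling the libraries differed by 0.44 on the log2 scale for Pcbp1. Of the 15 genes with the largest spread, 4 predicted genes were listed at 0 in at least 1 library, namely Gm11032, Gm11034, Gm3625 and Gm10197, so they have no fold. Gm10800 stood at 5.17, 166 and 59.6 TPM. The other 10 were all lowest in library 1 and highest in library 2. They included the astrocyte glutamate transporter Slc1a2 at 4.92, 66.9 and 50.5 TPM, the astrocyte connexin Gjb6 at 2.27, 41.8 and 21.1 TPM, and the neurotensin receptor Ntsr2 at 6.10, 65.0 and 51.4 TPM. The brain matrix proteoglycan Bcan stood at 4.95, 60.9 and 51.0 TPM and the membrane protein Ttyh1 at 6.44, 70.7 and 51.3 TPM. Igfbp6 and Igfbp5, which bind insulin-like growth factors, stood at 2.94, 50.3 and 17.4 TPM and at 3.08, 43.7 and 17.9 TPM. The transporters Slc4a10 and Slc47a1 and the mitochondrial Aifm3 completed the set, with library 2 at 26.0, 22.5 and 21.0 times library 1. Of the 100 genes with the largest spread, 98 were lowest in library 1 and 96 highest in library 2, and 22 were in one of the cell type lists, 16 of them in the astrocyte list. Of all 8428 counted genes, 100 (1.19%) were in a cell type list. The lists were chosen with earlier results of these data known, so these shares are a description and not a test.

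**Figure D4:**
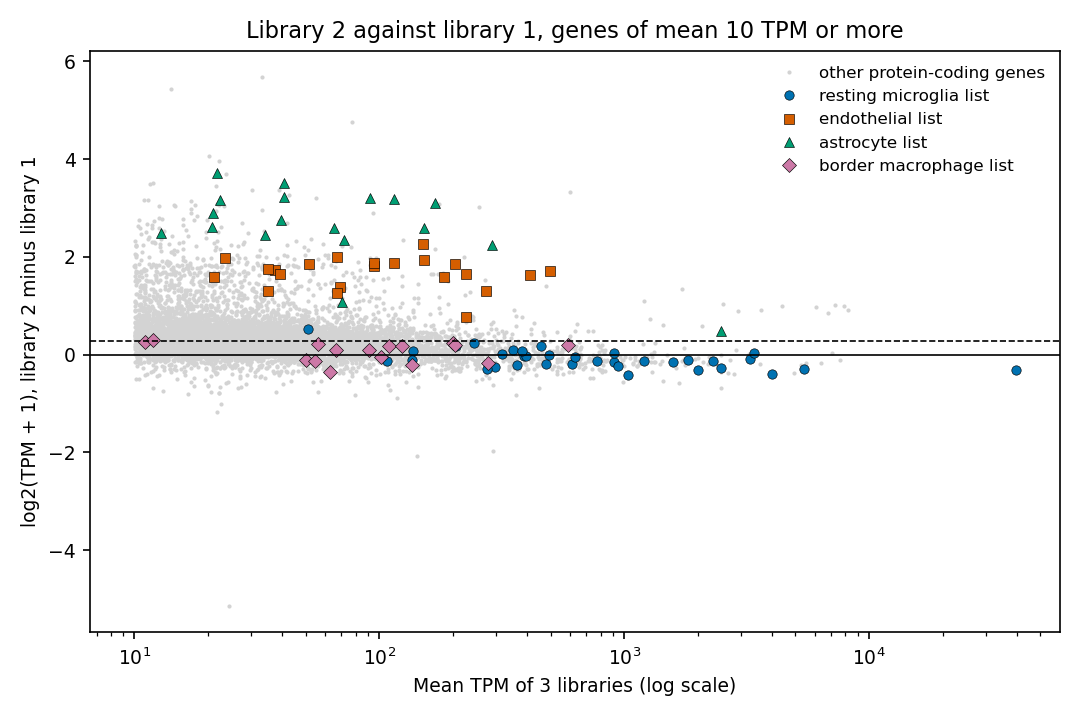
Difference in log2(TPM + 1) of library 2 minus library 1 against the mean TPM on a log axis, for the 8428 protein-coding genes with a mean of at least 10 TPM, with 4 gene lists in colour. The dashed line is the median of all genes at 0.28, and all points of the astrocyte and endothelial lists lie above it, with medians of 2.68 and 1.72, while the resting microglia and border macrophage lists have medians of -0.12 and 0.14.

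RNA of other brain cells was present in each library and differed between them. In such bulk samples, fewer cells of a type and less RNA per cell cannot be told apart. Markers of 17 other cell types together came to 1.67 ± 0.449% of coding TPM, and 1.36 ± 0.415% without Glul, the highest of them. Both sums include Trf, Csf3r and Ighm, single genes that make up most of their lists, as given below. A few members, Ighm among them, are not listed as protein-coding, so they add to the sum but not to the coding TPM. The 1.67% is a sum over chosen markers, not a share of cells.

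All 22 endothelial markers were detected, and they held 0.189, 0.516 and 0.428% of coding TPM. Ly6c1, a surface protein of brain endothelium in mice, stood at 217, 712 and 564 TPM. Cldn5, the tight junction protein of the blood-brain barrier, stood at 153, 375 and 292 TPM. The stem cell antigen Ly6a, Eng (endoglin, a TGF-beta coreceptor) and Itm2a had means of 227 ± 117, 225 ± 60.2 and 204 ± 112 TPM. In 22 of 22 endothelial genes library 1 was lowest and library 2 highest, an order held by 59.7% of all counted genes. After rescaling 20 of 22 kept it, against 15.4%. As deposited, 21 varied more than 2-fold, against 8.64%. The median ratio of library 2 to library 1 was 3.37. Pecam1 (CD31), a junction protein named after its value was seen, followed the group with 37.5, 98.7 and 71.7 TPM. Between libraries 2 and 3 alone, none of the 22 differed more than 2-fold.

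Astrocyte markers held 0.316, 0.582 and 0.508% of coding TPM, of which Glul made up 65.7%. Glul had a ratio of 1.41 between libraries 2 and 1, well below the list's median of 7.32. Without it, the summed level of the remaining markers was 332, 2079 and 1490 TPM. Sparcl1, a synapse-promoting secreted protein, stood at 91.7, 435 and 336 TPM. Clu (clusterin) stood at 32.4, 285 and 187 TPM, and the intermediate filament Gfap at 20.9, 198 and 126 TPM. The brain aldolase Aldoc followed them with 15.1, 148 and 111 TPM. All 18 markers with a mean of at least 10 TPM were lowest in library 1 and highest in library 2. That order was held by 59.7% of all counted genes. After rescaling 17 kept it, against 15.4%. As deposited, 17 of 18 varied more than 2-fold, against 8.64%. Glul was the 1 that did not.

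Mural markers, from pericytes and smooth muscle, held 0.0638, 0.143 and 0.132% of coding TPM. The matrix protein Vtn stood at 81.4, 329 and 256 TPM, the G protein regulator Rgs5 at 73.6, 234 and 178 TPM, and smooth muscle actin Acta2 at 96.8, 138 and 140 TPM. Myl9 and Tagln, both of contractile cells, and Higd1b, of pericytes, had means of 143 ± 50.3, 66.8 ± 14.2 and 41.9 ± 24.8 TPM. All 11 counted members were lowest in library 1 as deposited, against 74.3% of all counted genes, and 10 after rescaling, against 25.3%. Meningeal fibroblast markers held 0.0425, 0.213 and 0.122%. Ptgds, a prostaglandin D synthase, stood at 117, 1184 and 502 TPM and made up 58.1% of the list's sum. Without it, the summed level of the remaining markers was 204, 636 and 461 TPM. Mgp, an inhibitor of calcification, stood at 132, 384 and 298 TPM. The matrix genes Bgn, Dcn and Islr had means of 38.3 ± 20, 25.1 ± 14.8 and 21.7 ± 18.1 TPM, and the growth factor Igf2 33.7 ± 13 TPM. All 7 counted members were in the order library 1, library 3, library 2 on both scales. Of all counted genes, 59.7% held that order as deposited and 15.4% after rescaling.

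Oligodendrocyte markers held 0.122, 0.173 and 0.129% of coding TPM in spite of the myelin depletion. Myelin basic protein Mbp stood at 60.1, 492 and 216 TPM, and Mobp at 10.6, 107 and 47.4 TPM. Mal and Cnp, further proteins of myelin, had means of 42.3 ± 23.3 and 43.8 ± 7.77 TPM. Transferrin, Trf, went the other way with 746, 584 and 530 TPM and made up 54.4% of the list's sum. Of 9 counted members 7 were in the order library 1, library 3, library 2 as deposited, against 59.7% of all counted genes. After rescaling 6 were, against 15.4%.

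Neurons and precursors left little RNA. Of 16 neuronal markers 5 were detected, the highest being the kinase Camk2a at 9.47, 50.8 and 23.99 TPM, the calmodulin-binding Nrgn (21.9 ± 16.9 TPM) and the growth-associated Stmn2 (16.3 ± 7 TPM). Snap25, Slc17a7 and Stmn3, of synapse and cytoskeleton, had means of 9.1, 4.26 and 3.18 TPM. Of 9 markers of oligodendrocyte precursors 3 were detected, and none reached a mean of 10 TPM, with Cspg4 (NG2) at 7.81 ± 3.76 TPM first. Of the ependymal list only Rarres2 (16.5 ± 7.34 TPM) was detected, and its cilia regulator Foxj1 stood at 0.356 TPM. In the choroid plexus list Folr1 had 1.74 TPM, and Ttr, the defining transport protein, 0.149 TPM.

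Border macrophage markers behaved differently from those of vessels and astrocytes. All 17 were detected, with shares of 0.301, 0.279 and 0.227% of coding TPM. The scavenger receptor Stab1 stood at 567, 645 and 550 TPM, the chemokine Pf4 at 330, 292 and 208 TPM, and the mannose receptor Mrc1 (CD206) at 202, 237 and 162 TPM. Cbr2, a carbonyl reductase, had 203 ± 35.6 TPM, and the lectins Cd209f and Clec10a had 136 ± 37.1 and 124 ± 19.1 TPM. None of the 16 counted members varied more than 2-fold as deposited, although 3 did after rescaling. All 16 were lowest in library 3 on both scales, where 18.3% of all counted genes were lowest as deposited and 29% after rescaling. None followed the order of the endothelial and astrocyte markers.

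**Figure D5:**
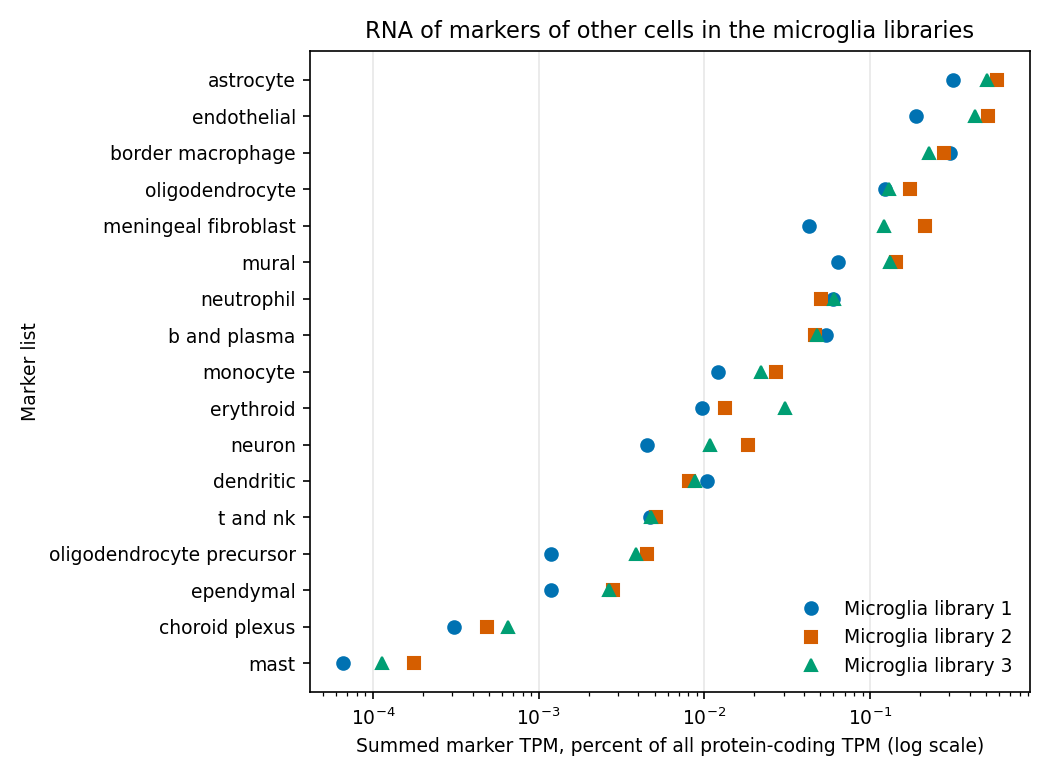
Summed TPM of each of 17 cell type marker lists as a percentage of all protein-coding TPM, on a log axis, with 1 marker for each library. Astrocyte, endothelial, mural and meningeal fibroblast lists have library 1 to the left of the others, as for endothelium with 0.189% against 0.428 and 0.516%, while border macrophages have library 3 at the left.

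The neutrophil and B cell lists rested on single genes, which held 90.3 and 96.5% of their sums. In the neutrophil list Csf3r had 410 TPM and the other members were far lower, with S100a8 at 12.7, 7.35 and 4.69 TPM, S100a9 at 11 ± 4.41 TPM, the gelatinase Mmp9 at 18.6 ± 1.86 TPM, Ngp at 1.82 TPM and Ly6g listed at 0. In the B cell list Ighm, the constant region of IgM, stood at 393, 376 and 368 TPM, while the B cell receptor chain Cd79a had 0.341 TPM. Cd79b (7.93 TPM) and Igkc (4.45 TPM) lay between. In the list for T and natural killer cells 3 of 15 were detected, with the IL-7 receptor Il7r at 29.9 ± 3.41 TPM and the T cell receptor chain Cd3d at 3.09 ± 1.88 TPM. Fibronectin, Fn1, led the monocyte list with 37.5, 151 and 102 TPM, followed by S100a6 at 14.1 ± 5.75 TPM, while the chemokine receptor Ccr2 had 5.77 ± 0.416 TPM. In the dendritic list the factor Batf3 had 29.5 ± 2.58 TPM and the lectin Cd209a 25.1 ± 7.01 TPM. Mast cell proteases Mcpt4 and Tpsb2 were listed at 0. Red cell RNA had an order of its own. Globin genes Hba-a1 and Hbb-bs stood at 33.1, 54.5 and 115 TPM and at 29.4, 44.4 and 92.6 TPM. All 3 counted members were highest in library 3 on both scales, against 17.8% of all counted genes on each. The adult globin genes also have close paralogues, so single-gene levels are uncertain here too.

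Genes of both sex chromosomes were present in each library. Xist, the noncoding RNA made from the inactive X of female cells, stood at 42.5, 91.0 and 81.3 TPM. The Y-linked Eif2s3y stood at 37.0, 44.9 and 49.2 TPM, Ddx3y at 21.0, 25.6 and 23.2 TPM, Uty at 11.6, 16.3 and 13.7 TPM, and Kdm5d at 4.30, 5.43 and 4.43 TPM. No library thus held RNA of one kind only.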

How the data were processed

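Cell suspensions of normal cerebral cortex, enriched for CD11b-positive cells, gave 3 RNA-seq libraries, grouped by the submitters' labels. The authors deposited TPM for 38026 features in 1 table, per the file headers, with gene biotype and coordinates. The submitters' processing notes name mm10, FastQC and DESeq2 without versions. Not given in the sources used here were the aligner, the quantifier, the gene annotation, strandedness and the handling of reads that match several places. TPM keeps no depth, so no counting interval can be given. The authors' deposited fold changes and p-values and the tumor columns were not used here.

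From the deposited TPM, ranks, means, SDs, ranges of log2(TPM + 1) and sums over gene lists were computed with Python 3.11.15, pandas 2.3.3 and numpy 2.4.6. The pseudocount of 1 understates differences of low genes. Spread was counted for coding genes with a mean of at least 10 TPM, and a gene was called detected at 1 TPM or more in all 3 libraries. The spread statistics were tested on simulated data. Median-ratio rescaling, TPM rescaled over coding genes, and values without mitochondrially encoded genes or without each library served as alternatives. Near-identical copies were matched among GENCODE M21 transcripts (GRCm38, which is mm10) with blastn 2.17.0 at 95% identity over 80% of the copy. Only pseudogenes with a mean of at least 10 TPM, and Rps27rt, were searched as copies. MicroRNA sequences came from RefSeq (GRCm38.p6).

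The 50 gene lists hold 946 genes, with 3 members left out because their symbol was missing or given to several genes. Genes were named by rule: the 30 coding genes of highest mean, the 15 of largest and 10 of smallest spread, the 6 highest members of each list and those at 0, the 10 highest noncoding features, and the microglia and sex-linked markers. Some genes that the rule names are not reported here. Genes outside the rule are said to be named after their values were seen. The members and lists were chosen with earlier results of these data known.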

Additional observations from a re-analysis of the deposited data

How the results depend on the processing

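No paired analysis was possible because only 1 group of libraries is described. With 1 library left out at a time, the lowest correlation between libraries ranged from 0.962 to 0.991, detected coding genes from 12112 to 13095, the share of the 100 top genes from 32.8 to 34.7% of coding TPM, marker RNA of other cells from 1.47 to 1.91%, and genes varying more than 2-fold from 51 to 658. The low count of 51 is that without library 1 and 418 that without library 2, both over genes with a mean of at least 10 TPM in the libraries kept. The count of such genes was 1953 with a mean of at least 1 TPM and 53 with at least 100 TPM, against 728 with at least 10 TPM, since each choice admits other genes. The lowest correlation was 0.980 over all coding genes instead of 0.961. The share of the 100 top genes was 30.4% without mitochondrially encoded genes. The other alternatives run for these 5 results moved none of them past its limit. For the marker RNA share, the share of the 100 top genes and the lowest correlation this was partly fixed in advance. Dividing a library by 1 number leaves the marker share unchanged, and changes the top gene share only through which genes are chosen. Leaving out 1 of 3 libraries cannot move the mean of the marker share by 1 SD, and can hardly move that of the top gene share so far. The lowest correlation changes little when a library is divided by 1 number. Without library 3 it rests on the same pair, libraries 1 and 2. Adding near-identical copies, an alternative chosen after seeing the data, moved the median of ribosomal protein genes from 578 to 767 TPM. Of 256 gene levels given, 249 stayed within 1 SD after median-ratio rescaling. That count was largely fixed in advance, since this rescaling raises library 1 and lowers libraries 2 and 3. In a mean over the 3 libraries these changes nearly cancel, so only very steady genes can move by 1 SD. The count therefore does not show that the levels are robust to rescaling. All 256 stayed within 1 SD when any 1 library was left out, but this was also fixed in advance. Leaving out 1 of 3 libraries cannot move a mean by 1 SD. When TPM was rescaled over coding genes, 161 moved by more than 1 SD. Coding TPM summed to 755438, 854031 and 791180 as deposited and was set to 1000000. This raises every level, so the 161 include a change of unit. Without mitochondrially encoded genes, with the remaining coding TPM again set to 1000000, 175 of 254 moved, so the same holds for them. Without its highest member the share of 11 of 17 marker lists moved by more than 1 SD. Depth is not known, so how far it limits low values could not be judged.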
